A study of Mus musculus with 6 samples.

Results

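Transcripts of 10 genes of the matrix metalloproteinase system were examined in mouse macrophages that had met Candida albicans: the metalloproteinases Mmp8, Mmp9, Mmp12, Mmp13, Mmp14 and Mmp19, the membrane protease Adam8, and the tissue inhibitors Timp1, Timp2 and Timp3. The genes were picked by symbol, and all 10 were found among the 54532 genes of the deposited table. Wild type (WT, 3 libraries, replicates 1 to 3) and progranulin knock out macrophages (PGRN KO, 3 libraries, replicates 4 to 6), both of strain C57BL/6J, were compared after a challenge of 6 hours with 1 fungal cell per macrophage by the labels, so that the fungus was present in every library. The text of the study calls the fungus live and gives a different ratio of cells for this experiment. Progranulin, encoded by Grn, is a secreted glycoprotein that is also found in lysosomes. The labels call the cells macrophages from the peritoneal cavity, plated at 2000000 per well, whereas the text of the study speaks of bone marrow-derived macrophages, and the labels were followed. The age of the animals, and whether a library stood for 1 animal or a pool, are given by none of the sources used here, and p-values therefore measure only the spread between these libraries. According to the methods of the study, PGRN KO and WT mice were obtained from different suppliers, so that genotype and source of the animals cannot be told apart.

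Matrix metalloproteinases are zinc-dependent proteases that are made as inactive precursors and cut collagens, elastin, basement membrane proteins, chemokines and other proteins outside the cell. Tissue inhibitors of metalloproteinases (TIMPs) block them by sitting in the active site, and Timp2 also takes part, with Mmp14, in activating the precursor of Mmp2. In macrophages these genes are known for tissue invasion, turnover of matrix and release of signalling proteins from the cell surface.

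The libraries held 15996786 to 17551619 fragments, recovered from the values. Grn was at 323 to 337 FPKM (fragments per kilobase of gene model, scaled to library size) in WT and at no more than 0.0167 FPKM in PGRN KO. Of 7 general macrophage markers all were expressed, with summed levels, mostly of Lyz2, of 7091 to 7423 FPKM in WT and 7235 to 9725 FPKM in PGRN KO. Among them Csf1r was lower (32.5 and 24.7 FPKM on average, limma adjusted p 0.0178) and Mertk higher in PGRN KO (1.41 and 3.24 FPKM, 0.00640). Of 5 markers of resident peritoneal macrophages Gata6, Icam2 and Prg4 were present and Timd4 and Rarb stayed at or below 0.204 FPKM. Icam2 was higher in PGRN KO (3.10 and 5.10 FPKM on average, limma adjusted p 0.00914), whereas Gata6 and Prg4 did not pass. Timd4, which was not tested, rested on 16 fragments in WT and 3 in PGRN KO. The summed level of 3 B cell markers was 1.01 to 1.76 FPKM in WT and 4.85 to 6.34 FPKM in PGRN KO, that of 3 mast cell markers was 0.546 to 0.918 and 1.79 to 2.09 FPKM, although the mean of Kit among them went from 0.345 FPKM (WT) to 0.210 (PGRN KO), and that of 3 T cell markers was 1.73 to 2.57 and 1.99 to 4.16 FPKM. The part of such cells in the results below was not tested. PGRN KO replicate 6 stood apart from the other libraries. Its deviation from the mean of each gene went with gene length, with a Spearman rho of -0.47 across genes. Genes are not independent replicates, and rho was 0.15 to 0.24 in the other libraries. Timp1, Timp2, Timp3, Mmp9, Adam15 and Fn1 are therefore given with and without it below, as are the counts of calls.

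Of the 10 genes, 9 had a mean FPKM of at least 1 and entered the test, whereas Timp3, at 0.231 FPKM, did not. Mmp9, Mmp12 and Mmp19 were significantly lower in PGRN KO, and Timp2 was significantly higher. Thus 4 of 9 passed a limma adjusted p of 0.05, against a background of 24.2% of the 8882 genes tested, of which 13.8% were lower and 10.4% higher. Mmp9, among these 4, met the filter only through its WT libraries, with a mean over all libraries of 1.06 FPKM. With a mean FPKM of at least 5, where Mmp9 was not tested, 3 members passed, beside 30.5% of all genes. The balance of directions among all genes depended on scaling, with 921 genes higher and 1230 lower as deposited but 922 higher and 608 lower once rescaled to TPM, which gives all libraries an equal sum. The median log2 fold change of the 9 genes was -0.21, beside -0.03 over all tested genes. Only 2 of them, Mmp9 and Mmp19, passed when WT replicate 1, 2 or 3 was left out, a setting in which 8.03%, 9.63% and 9.94% of all genes passed. In these bulk libraries fewer cells that make a transcript and less of it per cell cannot be told apart.

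**Figure D1:**
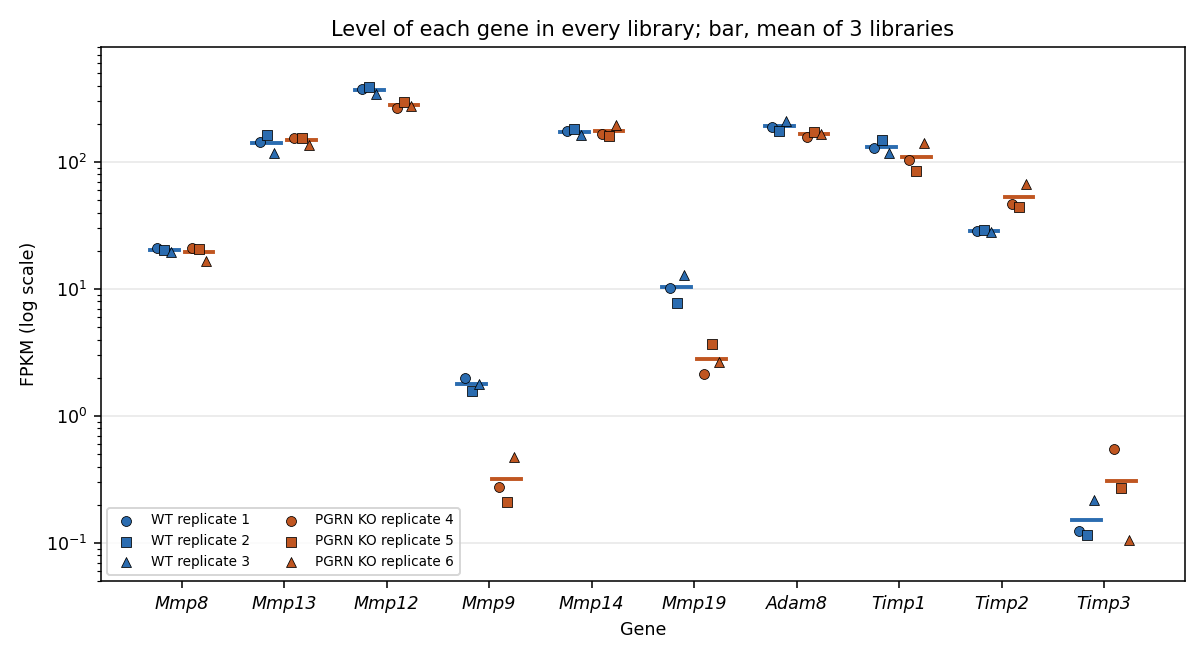
Level of each of the 10 genes in FPKM on a log axis, with 1 point for each of the 3 WT (blue) and 3 PGRN KO (orange) libraries and a bar at the mean. Mmp9 and Mmp19 lie clearly lower and Timp2 higher in every PGRN KO library, while the points of Mmp8, Mmp13, Mmp14 and Timp1 overlap between genotypes.

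The collagenases cut the triple helix of fibrillar collagens. Mmp13, the main collagenase of rodents (chromosome 9, 7272514 to 7283331, GRCm38), had levels of 145, 163 and 117 FPKM in WT (replicates 1, 2 and 3, an order kept below) and of 155, 155 and 136 FPKM in PGRN KO (replicates 4, 5 and 6). All PGRN KO values lay within the range of WT. Its log2 fold change was 0.08 ± 0.14 (SE), with a 95% interval of -0.25 to 0.41 and a limma adjusted p of 0.706, so that a change of 0.841-fold to 1.33-fold was within the error. Mmp8, the collagenase known from neutrophil granules (chromosome 9, 7558456 to 7568485), was much lower than Mmp13, at 20.9, 20.3 and 19.5 FPKM in WT and 21.2, 20.5 and 16.7 FPKM in PGRN KO. The lowest value was that of PGRN KO replicate 6, and the log2 fold change of -0.06 ± 0.11 (SE) was within the spread of the replicates (95% interval -0.32 to 0.20, limma adjusted p 0.717). Neutrophil markers were measured beside it. Of 10 such markers 9 were at or below 0.443 FPKM in every library, and Ly6g, Cxcr2 and Elane were at 0 in all of them. The remaining marker, S100a8, was at 48.3 to 52.8 FPKM in WT and 21.2 to 25.6 FPKM in PGRN KO, and its part in the results for Mmp8 and Mmp9 was not tested.

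Mmp12, the macrophage elastase, had the highest level of the 10 genes in both genotypes. It lies on chromosome 9 from 7344381 to 7369499 and was measured at 377, 392 and 343 FPKM in WT and at 267, 298 and 277 FPKM in PGRN KO. The groups did not overlap. The mean fell from 371 ± 25.0 to 280 ± 15.7 FPKM (SD, n = 3 each). The log2 difference was -0.40 ± 0.10 (SE; limma adjusted p 0.0302). The 3′ end of Mmp12 overlaps Mmp1b on the opposite strand over 2.17% of its exon bases, and Mmp1b was at no more than 0.159 FPKM. The call was close to the threshold. It was lost on the TPM scale (adjusted p 0.0689) and after quantile normalization (0.107), without a filter (0.0700), and on leaving out WT replicate 1, 2 or 3 or PGRN KO replicate 4 (0.139, 0.124, 0.0629 and 0.0937).

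Mmp9, gelatinase B, which cuts denatured collagens and basement membrane collagen, was among the lowest of the expressed members. On chromosome 2 from 164940780 to 164955850, it was measured at 1.99, 1.59 and 1.80 FPKM in WT and at 0.277, 0.209 and 0.474 FPKM in PGRN KO. These values rested on 118, 83 and 115 fragments in WT and 17, 14 and 29 fragments in PGRN KO. Each PGRN KO library was thus far below each WT library, with a mean that was 17.9% of the WT mean. The log2 fold change was -1.08 ± 0.12 (SE) on the log2(FPKM + 1) scale (limma adjusted p 0.00211), a scale that understates changes of low genes, and -2.55 ± 0.30 (SE) with voom, a model for log counts, on the recovered fragments (adjusted p 0.00146). Mmp9, which counts among the 4 genes that passed, met the filter on low values only through its WT libraries, the mean over all libraries being 1.06 FPKM. Without PGRN KO replicate 6 the log2 fold change on the log2(FPKM + 1) scale was -1.17 (limma adjusted p 0.000955). Without a filter the adjusted p was 0.0111, and it stayed at or below 0.0177 in the 15 alternatives in which Mmp9 was tested.

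Mmp19, which cuts components of basement membranes, showed the largest difference of the 10 genes on the log2(FPKM + 1) scale. It lies on chromosome 10 from 128790910 to 128800824 and was at 10.3, 7.79 and 13.0 FPKM in WT and 2.14, 3.71 and 2.65 FPKM in PGRN KO. The lowest WT library was above the highest PGRN KO library. The mean fell from 10.4 ± 2.62 to 2.83 ± 0.799 FPKM (SD, n = 3 each), which was a log2 difference of -1.56 ± 0.21 (SE; limma adjusted p 0.00433), and it passed in all 16 alternatives, with adjusted p of at most 0.0271. Tmem198b, on the opposite strand, overlaps 22.33% of the exon bases of Mmp19, and Gm47093 overlaps 6.00%. Whether strand was used in counting is given by none of the sources used here, and Tmem198b was at 0.623 to 1.15 FPKM in WT and 0.413 to 0.832 FPKM in PGRN KO, below Mmp19 in each library. Among tested protein-coding genes, the 5 whose log2(FPKM + 1) followed Mmp19 most closely over the 6 libraries were Ccdc115, Emilin2, Hnrnpl, Pip4k2c and Creg2, with Pearson r of 0.993 to 0.995. All of these libraries share the difference between genotypes, and the correlations are a description.

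Mmp14, a protease anchored in the membrane that cuts collagen and activates the precursor of Mmp2, was high and even. On chromosome 14 from 54431612 to 54445364, it was at 175, 181 and 165 FPKM in WT and at 166, 162 and 195 FPKM in PGRN KO. Both means were 174 FPKM (SD 8.36 and 18.3, n = 3 each). The log2 fold change was 0.00 ± 0.11 (SE), and its 95% interval of -0.25 to 0.25 corresponds to 0.840-fold to 1.19-fold (limma adjusted p 0.994). The highest value was that of PGRN KO replicate 6.

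Adam8, a membrane protease of myeloid cells that carries a disintegrin domain and sheds surface proteins, was at 188, 177 and 212 FPKM in WT and at 159, 173 and 167 FPKM in PGRN KO (chromosome 7, 139978932 to 139992562). Each PGRN KO value was below each WT value. The log2 fold change of -0.21 ± 0.10 (SE) did not pass, with a 95% interval of -0.45 to 0.04 and a limma adjusted p of 0.179. Among the tested members it was thus 1 of 5 whose groups did not overlap, which held for 48.8% of all tested genes.

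Of the 3 inhibitors 1 passed the test. Timp2, which inhibits most metalloproteinases and is made constitutively in many tissues, lies on chromosome 11 from 118301069 to 118355740 and was at 28.8, 29.4 and 28.4 FPKM in WT and 46.4, 44.5 and 67.4 FPKM in PGRN KO. Values were nearly equal within WT and higher in each PGRN KO library, most of all in replicate 6. The mean rose from 28.8 ± 0.505 to 52.7 ± 12.7 FPKM (SD, n = 3 each), which was 1.83-fold, or a log2 difference of 0.82 ± 0.16 (SE; limma adjusted p 0.0133). Without PGRN KO replicate 6 the log2 fold change was 0.64 (adjusted p 0.000683). Without WT replicates 1, 2 and 3 it was 0.82, 0.84 and 0.81 and missed the threshold, with adjusted p of 0.0611, 0.0552 and 0.0560.

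Timp1, the inhibitor that is induced by cytokines and growth factors, lies on the X chromosome from 20870166 to 20874735. It was at 130, 148 and 118 FPKM in WT and at 104, 84.8 and 141 FPKM in PGRN KO. The PGRN KO libraries 4 and 5 lay below all of WT, but replicate 6 was within the range of WT. The log2 fold change was -0.29 ± 0.19 (SE) and did not pass (95% interval -0.74 to 0.17, limma adjusted p 0.308). With a gene model of 888 bases Timp1 is the shortest of the 10 genes, and its level in replicate 6 was above those in replicates 4 and 5. Without replicate 6 the log2 fold change was -0.48 with an adjusted p of 0.0240, and with all libraries and a correction for GC content and gene length it was -0.38 with 0.0436, so that whether Timp1 passed depended on this library and on the correction. As for a gene on the X chromosome, sex-linked transcripts were compared: Xist was at no more than 0.00377 FPKM and Ddx3y was at 8.16 to 13.6 FPKM across all 6 libraries.

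Timp3, which binds to the matrix and also inhibits several ADAM proteases (chromosome 10, 86300372 to 86349506), was at 0.125, 0.116 and 0.218 FPKM in WT and 0.546, 0.272 and 0.107 FPKM in PGRN KO. These were 17, 14 and 32 fragments in WT and 77, 42 and 15 in PGRN KO. Replicate 6 was the lowest of all 6 libraries and replicate 4 the highest, so that the groups overlapped. A share of 21.28% of its exon bases is overlapped by Syn3 on the opposite strand, which was at no more than 0.0541 FPKM. Tested without a filter, the log2 difference was 0.17 ± 0.12 (SE; limma adjusted p 0.538). Without replicate 6, an alternative added after seeing the data, it was 0.28 ± 0.10 (adjusted p 0.162), with both remaining PGRN KO values above those of WT, so that a difference in Timp3 did not pass in either case.

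**Figure D2:**
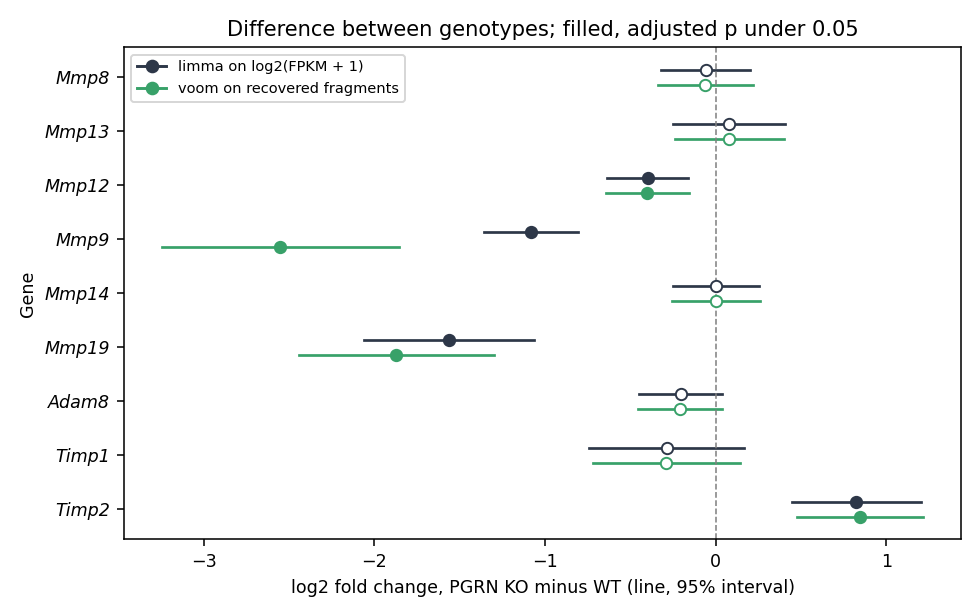
Difference between genotypes for the 9 tested genes, as log2 fold change (PGRN KO minus WT) with its 95% interval, from limma on log2(FPKM + 1) (dark) and from voom on recovered fragments (green). Filled points passed an adjusted p of 0.05. The methods differ in size for the low gene Mmp9, at -1.08 and -2.55, and less for Mmp19, at -1.56 and -1.87.

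Levels per length were ranked within each genotype. In WT the order was Mmp12, Adam8, Mmp14, Mmp13, Timp1, Timp2, Mmp8, Mmp19, Mmp9 and Timp3, and the ranges of the 3 libraries overlapped between the neighbours Adam8 and Mmp14 and between Mmp13 and Timp1. In PGRN KO the order was the same except that Mmp14 stood before Adam8, again with overlapping ranges, as had Mmp13 and Timp1, and here Mmp9 and Timp3. Mmp12 made up 51.2% to 52.0% of the summed FPKM of the 6 metalloproteinases in WT and 43.6% to 46.6% in PGRN KO.

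The make-up of the inhibitors is given as a description, with no test. Timp2 was 16.5% to 19.4% of the summed FPKM of the TIMPs in WT and 30.8% to 34.3% in PGRN KO. The ratio of Timp1 to Timp2, which does not depend on library scaling, was 4.15 to 5.04 in WT and 1.91 to 2.23 in PGRN KO. That of Mmp14 to Timp2 was 5.81 to 6.17 in WT and 2.90 to 3.64 in PGRN KO. In contrast, the sum of the 6 metalloproteinases over the sum of the TIMPs was 4.31 to 4.60 in WT and 3.01 to 4.93 in PGRN KO, and these ranges overlapped.

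Mmp8, Mmp12 and Mmp13 belong to a cluster of 10 metalloproteinase genes that spans 427 kb of chromosome 9, from 7272514 to 7699585. Of its 5 tested genes Mmp12 alone passed as reported, whereas Mmp13 and Mmp8 did not. Mmp3 (stromelysin) and Mmp27 were at 15.9 ± 3.82 and 1.24 ± 0.171 FPKM in WT. They were at 23.2 ± 2.24 and 1.90 ± 0.329 FPKM in PGRN KO (SD, n = 3 each, limma adjusted p 0.0622 and 0.0657). Mmp12 lost its call with TPM scaling or quantile normalization. Of Mmp2, Mmp3 and Mmp27, 2 were higher there. Mmp2, which lies outside the cluster, passed in all 16 alternatives, so that Mmp3 or Mmp27 passed as well. With voom and without PGRN KO replicate 5, 2 of these 3 were higher too. All 3 were higher with the GC and length correction (all libraries) and with sample quality weights. Elsewhere only Mmp2 of them was higher. Mmp1a, Mmp7 and Mmp20 were at 0 in every library, and Mmp1b and Mmp10 were not tested.

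To show how the start regions of the members in the cluster differ, 150 bases before the RefSeq transcript start of each are given (GRCm38.p6, plus strand, 5′ to 3′). Capitals mark matches to the AP-1 motif TGANTCA and the TATA box TATAAA, both searched on both strands, that lie within the stretch. The stretches of Mmp8 (chr9:7558279-7558428) and Mmp13 (chr9:7272364-7272513) lie upstream of the genes, and that of Mmp12 (chr9:7347224-7347373) lies before its second start, inside the first intron of longer Mmp12 transcripts.
Mmp8: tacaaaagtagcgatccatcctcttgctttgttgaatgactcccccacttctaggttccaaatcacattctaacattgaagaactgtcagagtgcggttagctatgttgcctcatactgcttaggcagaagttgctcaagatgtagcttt
Mmp12: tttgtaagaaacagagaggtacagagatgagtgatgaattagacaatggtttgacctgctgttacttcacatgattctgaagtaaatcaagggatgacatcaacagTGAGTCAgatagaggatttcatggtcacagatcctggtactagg
Mmp13: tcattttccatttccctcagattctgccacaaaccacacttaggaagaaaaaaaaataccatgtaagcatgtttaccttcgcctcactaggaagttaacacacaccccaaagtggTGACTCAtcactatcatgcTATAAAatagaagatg
AP-1 factors, dimers of Fos and Jun proteins, are known to act at this motif in metalloproteinase promoters. Mmp13 held TGACTCA beginning at base -35 from its start and Mmp12 held TGAGTCA at -44, while the Mmp8 stretch held neither motif. Each of them had TATA box letters near its start, in Mmp13 at -16, in Mmp12 at 5 past the start and in Mmp8 at -3 on the reverse strand, the last reaching over the start. Among all 32851 windows of 300 bases, which reach from 250 bases before to 50 after a start, 7.81% held the AP-1 motif and 13.6% the TATA box. Windows were found for 8 of the 10 members, but not for Mmp9 and Mmp19, and the windows of Mmp14, Adam8, Timp1, Timp2 and Timp3 held neither motif, nor did that at the first start of Mmp12. Of the other motifs searched on both strands, the GC box GGGCGG (35.7% of all windows) was found in Mmp14, Adam8, Timp1, Timp2 and Timp3, the ETS core AGGAAG (35.4%) in Mmp8, the first start of Mmp12, Mmp13, Mmp14, Timp1 and Timp3, and the interferon-stimulated response element (3.44%) in Mmp13. No matches of different motifs shared bases in these windows. Mmp12, which was lower, and Mmp13, which did not pass, both held AP-1 letters before a start, and the part of these letters in the levels was not tested. A match is a description of the sequence, not of binding.

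Next, 62 further genes of matrix remodelling were examined, all of them in the table, of which 30 were tested. Of these, 10 passed (33.3%, beside 24.2% of all tested genes), 2 higher and 8 lower, with a median log2 fold change of -0.19 over the 30 genes. The number was 17, 14 of them lower, without PGRN KO replicate 6, where 41.3% of all genes passed. Without WT replicate 1, 2 or 3 it was 7, 8 and 7, of which 5, 6 and 5 were lower. In these settings 8.03%, 9.63% and 9.94% of all genes passed. Among 17 other metalloproteinases 3 were tested and 14 were not, 4 of these being at 0 in every library. Mmp2, gelatinase A, rose from 5.21 ± 0.396 to 12.0 ± 0.697 FPKM (SD, n = 3 each; log2 fold change 1.07, limma adjusted p 0.00139), with 4.80, 5.60 and 5.23 FPKM in WT and 12.7, 11.3 and 12.0 FPKM in PGRN KO. The 2 gelatinases thus differed in opposite directions, Mmp9 being lower and Mmp2 higher. Mmp25, a further membrane-anchored member with a mean too low for the test as reported, was at 0.918 to 1.18 FPKM in WT and 0.404 to 0.523 FPKM in PGRN KO. Without a filter 13 of the other metalloproteinases were tested, and 1 was higher and 1 lower, beside 5.96% of all genes past the threshold. Timp4 and A2m, inhibitors as well, were at 0 in every library, and Reck was not tested.

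Mmp2, Timp2 and Timp3 are also abundant in fibroblasts, and markers of fibroblasts and mesothelium were therefore examined. Of 9 markers 7 stayed below 0.5 FPKM in all libraries and none was high enough for the test. Their summed level was 1.12 to 1.19 FPKM in WT and 2.05 to 3.75 FPKM in PGRN KO, with the highest single value at 1.89 FPKM for Dcn in PGRN KO replicate 4. The part of such cells in the differences of Timp2, Timp3 and Mmp2 was not tested. Dcn, Col1a1, Col1a2 and Col3a1 were higher in each PGRN KO library than in any WT library, and Lum, Msln, Upk3b, Krt19 and Pdgfra overlapped.

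Of 8 other ADAM proteases 4 were tested. Adam15 rose from 8.07 ± 0.366 to 14.9 ± 2.90 FPKM (log2 difference 0.80, adjusted p 0.00854 by limma) and Adam17, which releases TNF from the membrane, fell from 25.1 ± 0.911 to 18.9 ± 1.34 FPKM (-0.39, 0.0217; SD, n = 3 each). Without PGRN KO replicate 6 the log2 difference of Adam15 was 0.65 (adjusted p 0.000981), while Adam17 missed the threshold on the TPM scale (0.131) and on leaving out WT replicate 1, 2 or 3 (0.108, 0.0980 and 0.0680) or PGRN KO replicate 4 (0.0546). Adam9 and Adam10 did not pass, and neither did Adamts4, the only one of 6 ADAMTS proteases that was tested. Of 8 genes of plasminogen activation, a cascade that can activate metalloproteinase precursors, 5 were tested and none passed as reported. Without PGRN KO replicate 6 and with sample quality weights 2 were lower, where 41.3% and 47.6% of all genes passed. With voom and with the GC and length correction 1 was lower (25.5% and 33.5% of all genes). The lowest limma adjusted p among them as reported was that of Serpinb2, an inhibitor of plasminogen activators (0.0640).

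Of 10 matrix and surface partners 8 were tested and 2 were lower, which was 25.0%, near the 24.2% of all tested genes that passed. The number was 1 on the TPM scale and 4 without PGRN KO replicate 6, where 17.2% and 41.3% of all genes passed. Cd44, the hyaluronan receptor that can hold Mmp9 at the cell surface, fell from 103 ± 5.84 to 56.0 ± 6.31 FPKM (SD, n = 3 each; log2 difference -0.87, limma adjusted p 0.00356). Fn1, fibronectin, was at 267, 268 and 254 FPKM in WT and 179, 179 and 97.0 FPKM in PGRN KO, and its log2 difference was -0.85 (limma adjusted p 0.0411). The lowest value was that of replicate 6. The gene model of Fn1 has 11685 bases. With the GC and length correction (all libraries) the log2 difference of Fn1 was -0.73 ± 0.15 (SE; limma adjusted p 0.0106). The part of length alone in the value of replicate 6 was not tested. Without this library the log2 difference was -0.55 (limma adjusted p 0.000955). The call of Fn1 was lost after quantile normalization (0.0885), with TPM scaling (0.0935), with no filter (0.117) and without WT replicate 1, 2 or 3 (0.127, 0.125 and 0.106). Lcn2, a further gene of this list, did not pass (log2 difference 0.28, limma adjusted p 0.280).

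Of 10 factors of the AP-1 and ETS families 9 were tested, and 5 were significantly lower while none was higher, beside 13.8% lower and 10.4% higher among all tested genes. Their median log2 fold change was -0.57. On the TPM scale 6 of the 9 were lower, with a median of -0.52. There 17.2% of all 8882 tested genes passed, 608 of them lower. The list was chosen with earlier results of these data known. Fos fell from 68.3 ± 1.47 to 36.2 ± 1.30 FPKM and Fosb from 7.53 ± 0.875 to 2.57 ± 0.130 FPKM (log2 fold changes -0.90 and -1.25, limma adjusted p 0.00140 and 0.00119; SD, n = 3 each). Fosl1, Jun and Ets2 were also lower, by -0.65, -0.57 and -0.61, with limma adjusted p of 0.00726, 0.0131 and 0.00569. The call of Jun was lost without WT replicate 1 or 3 (0.0629 and 0.0560). Fosl2, Junb, Jund and Ets1 did not pass. Of the metalloproteinases among the members, Mmp9, Mmp12 and Mmp19 were lower, and Mmp13, Mmp14 and Mmp8 did not pass. The part of these factors in the levels of the members was not tested.

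**Figure D3:**
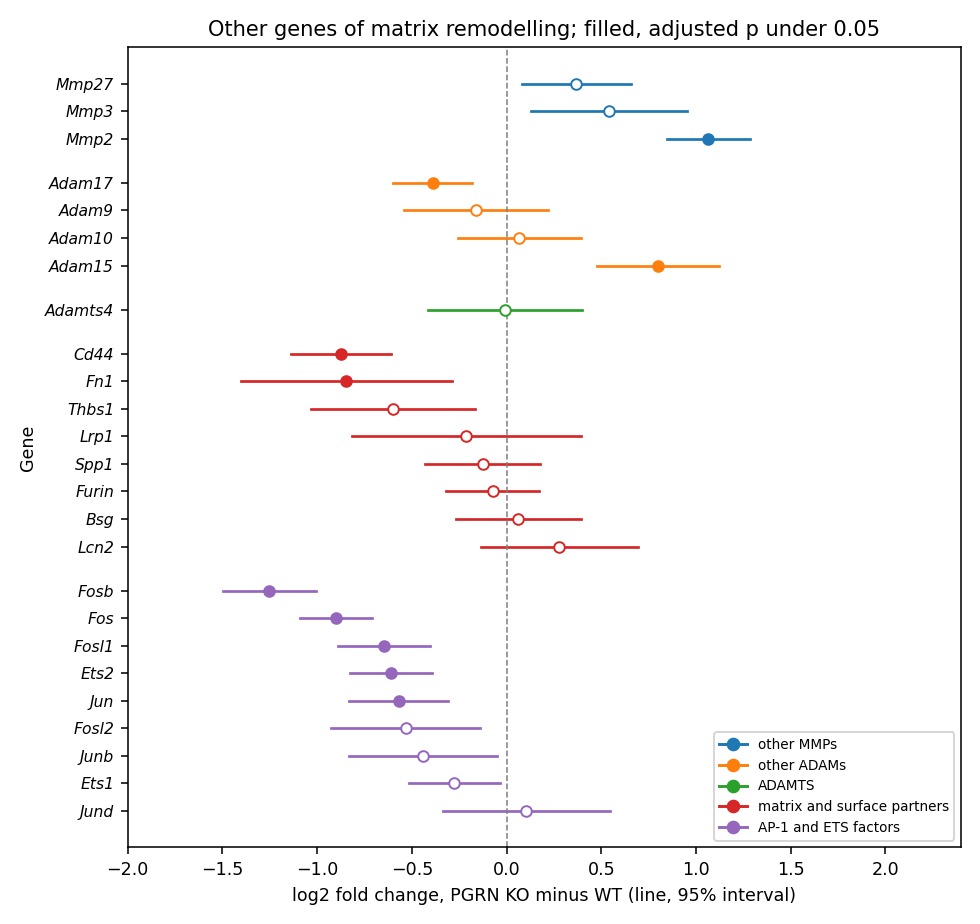
Difference between genotypes for the tested genes of the wider list other than those of plasminogen activation, as log2 fold change (PGRN KO minus WT) with its 95% interval, coloured by group. Filled points passed an adjusted p of 0.05: Mmp2 and Adam15 to the right, and Adam17, Cd44, Fn1, Fosb, Fos, Fosl1, Ets2 and Jun to the left.

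The calls were then compared across settings. Leaving out WT replicate 1, 2 or 3 left 2 of the 9 members in each case. The count was 3 without PGRN KO replicate 4 (15.6% of all tested genes), 4 without replicate 5 (18.0%) and 5 without replicate 6 (41.3%). It was 4 with a pseudocount of 0.1 (23.6%), with no variance trend (24.0%) and with voom (25.5%), and 3 with no filter (5.96%), a mean FPKM of at least 5 (30.5%), the TPM scale (17.2%) and quantile normalization (24.6%). It was 5 with the GC and length correction, with PGRN KO replicate 6 (33.5%) and without it (41.9%), and 6 with sample quality weights (47.6%), settings under which many more of all genes passed as well. Mmp19 and Mmp9 passed wherever they were tested. Timp2 passed in 13 of 16 alternatives and Mmp12 in 9 of 16, with the direction kept in each. Timp1 passed in 4 of 16, of which 3 left out PGRN KO replicate 6 or gave it a low weight, and Adam8 passed in 1 of 16, with sample quality weights (adjusted p 0.0463).

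**Figure D4:**
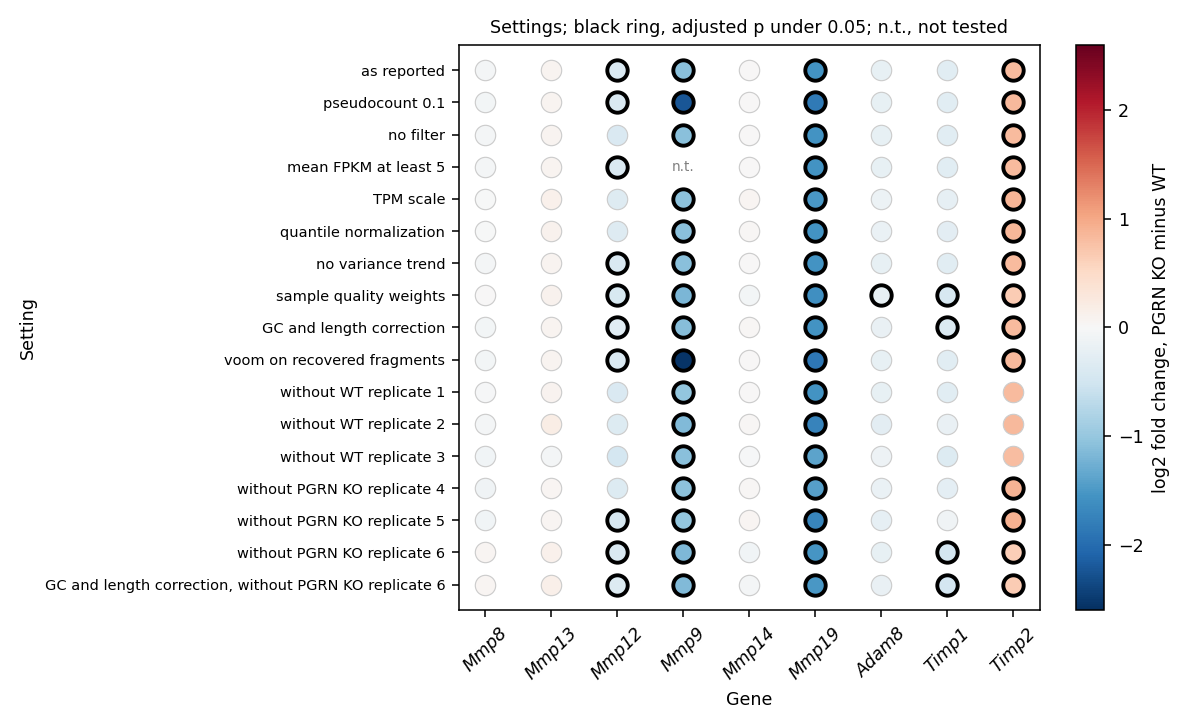
Log2 fold change (colour, blue lower and red higher in PGRN KO) of the 9 tested genes under each setting, with a black ring where the adjusted p was under 0.05 and n.t. where a gene was not tested. The columns of Mmp9 and Mmp19 are ringed wherever tested, and those of Mmp8, Mmp13 and Mmp14 nowhere.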

How the data were processed

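Libraries of polyadenylated RNA from 6 macrophage samples were sequenced in pairs. Per the processing notes of the submitters, the authors used CASAVA, HISAT2 2.0.5, featureCounts 1.5.0-p3, DESeq2 1.20.0 and the build mm10 or GRCm38, while the methods of the study name HTSeq and other versions. The authors deposited FPKM per gene and library. FPKM times gene length gave whole fragments (within 0.001) for 100.0% of values above 0, and the library sizes implied were median-ratio size factors times 16980300, so that values were already scaled between libraries. Of 54532 genes, 99.93% matched GENCODE M21 of GRCm38.

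Values were analysed as log2(FPKM + 1) where the mean FPKM reached 1 or more, by limma 3.58.1 in R 4.3.3 (genotype only, mean-variance trend, two-sided, Benjamini-Hochberg adjustment over all 8882 tested genes, threshold 0.05). The members, the lists and the tests were chosen with earlier results of these data known. Members were named in full, as were the genes of the wider list past the threshold (at most 5 in each direction by rule, and others by group), Grn, the markers and the 5 genes most like Mmp19. Genes overlapping members, and genes of the wider list that did not pass, were named after their values were seen. Alternatives were another pseudocount (0.1), no filter, a mean FPKM of at least 5, a TPM scale, quantile normalization, quality weights per sample, a fit with no variance trend, a loess correction for GC content and gene length (span 0.5), voom on recovered fragments, and leaving out each library. The correction without PGRN KO replicate 6, the unfiltered test of Timp3 without it, and the settings of single genes of the wider list were added after seeing the data. Sequences are from RefSeq (GRCm38.p6).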

Additional observations from a re-analysis of the deposited data

How the results depend on the processing

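No paired analysis was possible because the numbers 1 to 3 (WT) and 4 to 6 (PGRN KO) are not shared. Of 143 comparisons of a member with its reported value, 120 kept direction and call, 5 passed only in the alternative and 10 only as reported, and 8 changed sign, all without a call on either side. The sign changed for Mmp8 with sample quality weights (0.018), without PGRN KO replicate 6 (range without each library -0.12 to 0.042) and with the GC and length correction without it (0.046), for Mmp13 without WT replicate 3 (range -0.051 to 0.18), and for Mmp14 with sample quality weights (-0.079), without WT replicate 3 and PGRN KO replicate 6 (range -0.083 to 0.053) and with the correction without replicate 6 (-0.057).

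The 4 members past the threshold (1 higher, 3 lower) were 2 to 5 without each library, 0 to 1 of them higher and 2 to 4 lower. With sample quality weights 5 were lower. The wider list (10 genes, 2 higher, 8 lower) gave 7 to 17 without each library (2 to 3 higher, 5 to 14 lower), 20 with sample quality weights (5 higher, 15 lower), 16 with the GC and length correction (4 higher), and 18 with this correction without PGRN KO replicate 6 (4 higher, 14 lower). Over all genes, 2151 (921 higher, 1230 lower) became 713 to 3668 (331 to 1438 higher, 382 to 2230 lower) without each library, 1366 (603 higher, 763 lower) without a filter, where more genes are adjusted together, and 4225 (1757 higher, 2468 lower) with sample quality weights, which weighted PGRN KO replicate 6 by 0.0899. There were 529 higher genes above a mean FPKM of 5, from fewer genes tested, 608 lower genes on the TPM scale, and 3723 (1609 higher, 2114 lower) with the correction without replicate 6. Elsewhere the cause was not tested. Depth limits Timp3 and Mmp9, which rest on few fragments.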
